A study of Mus musculus with 2 samples.

Results

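The genes that build fatty acids and triglycerides were compared in the adipose tissue of inbred C57BL/6 mice on a normal diet (CE-2) and on a high fat diet (HFD32) used to induce obesity. They were taken as a list of 36 genes by function (lipogenic regulators, palmitate synthesis, NADPH supply, elongation, desaturation and glycerolipid assembly). A probe set, the group of probes that reads 1 transcript on the array, was assigned to a member where that member was its only gene symbol in the platform annotation. This found 34 of the 36 genes with 81 probe sets. Pc, which the annotation lists as Pcx, was added through a RefSeq synonym, giving 35 genes with 82 probe sets among 18193 genes and 45101 probe sets in all. G6pdx was not analysed here.

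Each diet was measured on 1 Affymetrix array, which held total RNA pooled from 3 mice, fed from 6 weeks of age and sampled at 18 weeks. Apart from diet, both groups are described alike, and neither the fat depot nor the sex of the animals was stated. With 1 pool per diet there are no replicates, so each difference compares 2 pools, carries no p-value and has no replicate check, and the number of arrays limits its precision. Values are log2 signals, and a difference is the high fat diet value minus the normal diet value, so that -1 is a 2-fold lower signal. The only error available is that between probe sets of 1 gene. It had an SD of 0.27 over 5131 genes, and in 3105 genes with exactly 2 probe sets both differences lay apart by a gap that reached 0.70 at its 95th percentile. That error covers probes alone, not animals, dissection or hybridisation.

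Fat cells make fatty acids from glucose carbon. Citrate leaves the mitochondrion, ATP citrate lyase splits it to acetyl-CoA, acetyl-CoA carboxylase makes malonyl-CoA, and fatty acid synthase extends the chain to palmitate with NADPH. Elongases and desaturases then remodel the chain, and acyltransferases and phosphatases attach acyl groups to glycerol 3-phosphate to form triglyceride, the store of the lipid droplet. In adipose tissue the program is driven by insulin and glucose through the transcription factors SREBP-1c and ChREBP, and dietary fat is known to lower it.

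The probe set with the highest mean signal stood for a gene, which was compared where that mean reached the floor of 5.44, the median of all probe sets other than controls. All 35 measured members passed this floor, as did 70 of their 82 probe sets. The signal was lower on the high fat diet array for 20 members and higher for 15, a lower share of 57.1% against 49.3% over all 11778 genes above the floor. The median difference was -0.16, against 0 for all genes. At 2-fold, 5 members (Acaca, Mogat1, Mlxipl, Fads1 and Pck1) were lower, a share of 14.3% where 3.29% of all genes were as low. No member was 2-fold higher on its representing probe set, where 3.28% of all genes were.

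Members lay on both sides of 0. Past the probe gap of 0.70, 8 members were lower (the 5 above with Pnpla3, Acly and Fads2) and 2 were higher (Scd2 and Fads3), beside 6.27% and 6.07% of all genes. Counted by probe set, 10 of 70 were at least 2-fold lower and 3 at least 2-fold higher, against 3.13% and 3.04% of 20090 probe sets above the floor. Of 24 members with several probe sets above the floor, 22 had every one on the same side, and the exceptions were Agpat3 and Dgat1.

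**Figure D1:**
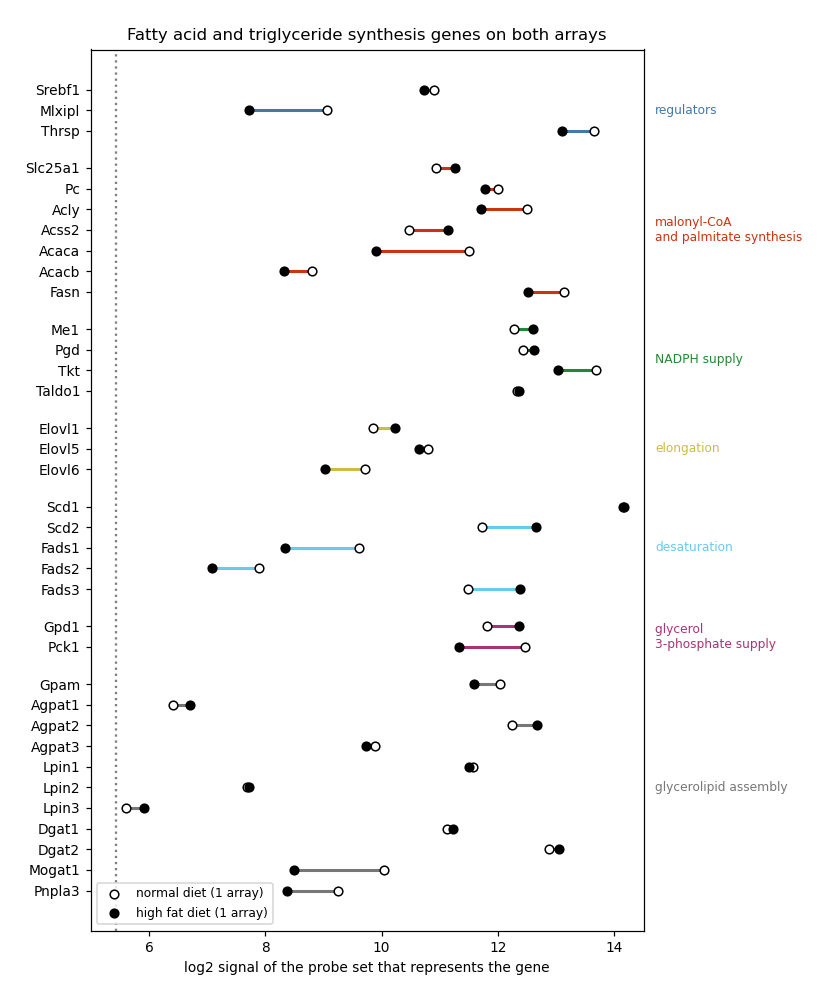
Log2 signal (x axis) of each of 35 members with the normal diet (open circles) and the high fat diet (filled circles), by step of the pathway, 1 pool of 3 mice each and no error bars; the dotted line is the floor of 5.44. The longest bars are those of Acaca (11.51 to 9.90), Mogat1 (10.04 to 8.49), Mlxipl (9.06 to 7.72) and Fads1 (9.61 to 8.34), all with the filled circle to the left.

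**Figure D2:**
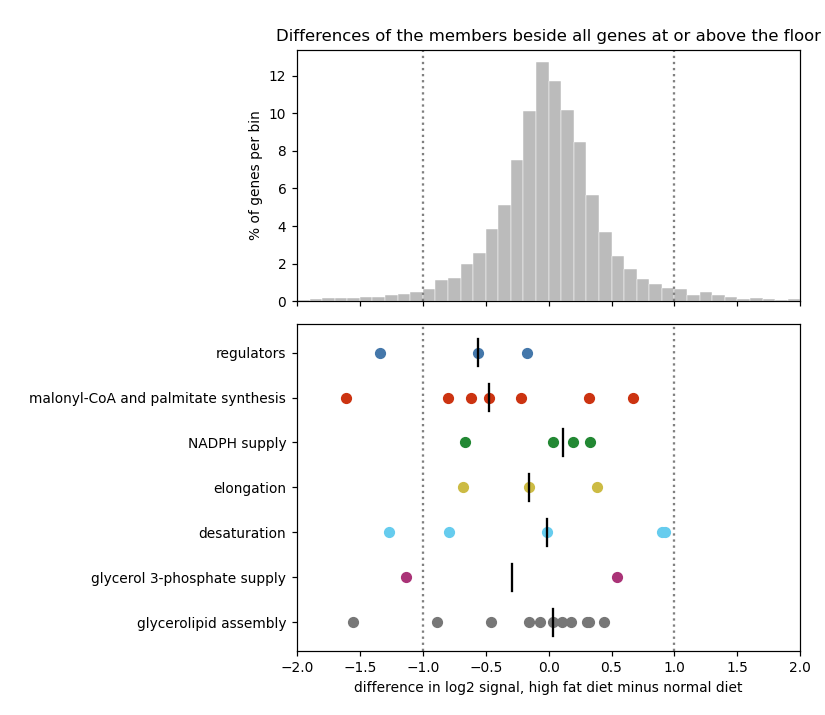
The upper panel shows the share of 11778 genes (y axis, in bins of 0.1) at each difference in log2 signal, high fat diet minus normal diet (x axis, cut at -2 and 2, which leaves out 197 genes); the lower panel shows each member as a point by step with the median as a bar. Dotted lines mark 2-fold, and 5 members lie left of the lower one and 0 right of the upper one.

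Adipocyte markers had a high signal on both arrays, and the summed signal of markers of other cells differed between them. Of 12 adipocyte markers listed 9 were measured. On their representing probe sets 2 were higher and 7 lower, with 1 (Lep, leptin) past 2-fold at 1.08. Other probe sets above the floor reached -1.52 for Fabp4 and 1.04 for Pnpla2. The representing probe sets had a summed linear signal of 93096 on the normal and 95378 on the high fat diet, with Adipoq at 14.21 and 14.12. All 21 measured hepatocyte markers, of 24 listed, were lower with the high fat diet, 20 by 2-fold or more, with a median difference of -4.84. Their summed signal was 45125 against 10538. Most of the latter came from Cyp2e1 (13.81 and 13.23), the 1 marker that was not 2-fold lower, so the sums understate the difference of the others. Albumin, Alb, had 13.15 and 7.91, and 8 of the 21 lay under background on the high fat diet array (4.95, the 95th percentile of 83 sensory receptor probe sets there). Macrophage markers were higher in 12 of 12 cases, 7 at least 2-fold, with sums of 15531 and 29905. Liver makes most of the enzymes described here, and the part of hepatocyte or macrophage RNA in their differences was not tested. In bulk RNA, fewer cells of a type and less RNA per cell cannot be told apart.

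The promoters of 6 members are shown because their genes lie on either side of the comparison: Mlxipl, Acly and Fasn were lower, Slc25a1 was higher, and Fads2 and Fads3, desaturase genes of 1 chromosome, went opposite ways. RefSeq start sites (build GRCm38.p6) were found for 29 of the 35 members, in 41 windows of 300 bases, from 250 before to 50 after the start. The 250 bases before the start are printed from 5′ to 3′ on the strand of the gene. Capitals mark matches on either strand to CACGTG (the E-box read by SREBP-1c, ChREBP and USF factors), CCAAT (bound by NF-Y), GGGCGG (the GC box bound by Sp1) and CACCCCA (part of a sterol regulatory element).
Mlxipl, chr5:135089640-135089889, plus strand: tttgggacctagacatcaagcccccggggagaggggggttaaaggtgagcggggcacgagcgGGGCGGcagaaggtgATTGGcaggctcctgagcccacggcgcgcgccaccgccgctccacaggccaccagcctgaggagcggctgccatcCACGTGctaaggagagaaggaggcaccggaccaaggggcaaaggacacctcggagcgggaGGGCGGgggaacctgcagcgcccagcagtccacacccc
Acly, chr11:100528001-100528250, minus strand: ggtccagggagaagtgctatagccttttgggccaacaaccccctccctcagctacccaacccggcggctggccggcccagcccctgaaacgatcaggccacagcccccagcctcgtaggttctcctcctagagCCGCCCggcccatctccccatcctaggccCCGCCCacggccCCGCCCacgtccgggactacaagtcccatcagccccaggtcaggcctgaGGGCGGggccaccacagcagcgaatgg
Fasn, chr11:120824548-120824797, minus strand: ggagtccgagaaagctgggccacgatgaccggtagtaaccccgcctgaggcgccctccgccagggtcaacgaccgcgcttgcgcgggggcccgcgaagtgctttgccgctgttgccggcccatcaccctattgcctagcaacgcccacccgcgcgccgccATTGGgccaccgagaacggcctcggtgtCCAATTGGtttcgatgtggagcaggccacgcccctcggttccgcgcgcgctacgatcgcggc
Slc25a1, chr16:17928220-17928469, minus strand: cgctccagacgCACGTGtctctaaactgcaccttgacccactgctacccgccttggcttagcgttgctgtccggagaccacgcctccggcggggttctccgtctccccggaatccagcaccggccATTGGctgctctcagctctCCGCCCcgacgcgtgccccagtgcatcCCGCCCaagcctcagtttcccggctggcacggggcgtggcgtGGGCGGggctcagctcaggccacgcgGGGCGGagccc
Fads2, chr19:10101504-10101753, minus strand: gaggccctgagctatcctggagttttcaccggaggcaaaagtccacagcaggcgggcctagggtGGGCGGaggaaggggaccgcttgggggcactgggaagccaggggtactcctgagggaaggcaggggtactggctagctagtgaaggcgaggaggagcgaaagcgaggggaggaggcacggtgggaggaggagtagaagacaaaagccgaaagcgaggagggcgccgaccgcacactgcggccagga
Fads3, chr19:10041298-10041547, plus strand: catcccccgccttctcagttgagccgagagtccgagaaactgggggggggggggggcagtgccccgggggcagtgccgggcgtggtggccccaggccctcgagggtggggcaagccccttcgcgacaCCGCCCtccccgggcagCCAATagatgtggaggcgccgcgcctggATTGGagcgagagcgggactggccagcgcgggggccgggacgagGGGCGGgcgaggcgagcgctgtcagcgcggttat

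In the window of Fasn 3 CCAAT matches begin 90, 62 and 59 bases before the start, and the last pair overlaps on opposite strands. Mlxipl has 2 start sites in the table. The window shown has an E-box that begins 98 bases before the start, and the 250 bases before the other start hold 0 matches to the 4 motifs. Slc25a1 has an E-box at 239. Acly and Slc25a1 hold 4 GC boxes each. Fads3 holds 2 CCAAT matches and 2 GC boxes, while Fads2 holds 1 GC box.

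Over all 41 member windows, CCAAT was found in 53.7% (37.4% of all 32851 windows of this length), the GC box in 58.5% (35.7%), the E-box in 14.6% (7.15%) and CACCCCA in 14.6% (7.62%). Split by direction, a member was counted where any of its windows held the letters. By that rule CCAAT was in 11 of 18 lower members and 9 of 11 higher members with a window. The GC box was in 9 of 18 and 11 of 11. The E-box was in 3 of 18 and 3 of 11, and CACCCCA in 4 of 18 and 2 of 11. Genes with several starts have more windows to match. The percentages above are by window, and no share by gene was counted over all genes. Direction here includes differences inside the probe SD, such as those of Lpin2 (0.03) and Taldo1 (0.04). Among higher members with a window, only Fads3 passed the probe gap. Among lower members with a window, Acaca, Mogat1, Mlxipl, Pck1, Pnpla3, Acly and Fads2 passed it. The split by direction thus rests largely on differences inside that gap, and whether a motif goes with direction was not tested. All these are counts of letters in 1 window per start, and no match says only that the letters are not in that window.

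All 3 regulators had a lower signal on the high fat diet array, by very different amounts. Mlxipl, which encodes the carbohydrate response factor ChREBP, had 9.06 with the normal diet and 7.72 with the high fat diet, a difference of -1.34 (lower by 2.54-fold). Only 2.05% of genes above the floor had a lower difference. Srebf1, the gene of SREBP-1, had 10.90 and 10.74 on its only probe set, a difference of -0.17 that is smaller than the probe SD. The array does not tell SREBP-1a from SREBP-1c here, since 1 probe set stands for the gene. Thrsp, the Spot 14 gene whose nuclear protein follows lipogenic rate, had 13.65 and 13.09. Its 3 probe sets differed by -0.56, -0.84 and -0.63, the smallest on the brightest probe set.

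In palmitate synthesis, Acaca and Acly were lower past the probe gap, and the other 5 genes lay within it. Acaca, the acetyl-CoA carboxylase of the cytosol that makes malonyl-CoA for synthesis, had the largest difference of any member on the representing probe sets. It had 11.51 with the normal diet and 9.90 with the high fat diet, a difference of -1.61 or 3.06-fold lower, and 1.49% of genes lay lower. Its other probe set gave -1.42. Acacb, the carboxylase at the mitochondrial surface whose malonyl-CoA restrains fatty acid oxidation, had 8.80 and 8.32, a difference of -0.47 that is inside the probe gap. Its other probe set lay below the floor.

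Acly, the lyase that makes cytosolic acetyl-CoA from citrate, had 12.51 and 11.70, 1.74-fold lower. Its 3 probe sets above the floor agreed closely, at -0.80, -0.73 and -0.82, and its other 3 lay below the floor. Fasn, the fatty acid synthase, had 13.13 and 12.51, a difference of -0.62, which is inside the probe gap and comes from 1 probe set. Acly, Acaca and Fasn act one after the other, and all were lower.

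Of the other carbon suppliers of the route 2 were higher and 1 lower, all by less than the probe gap. Acss2, which makes acetyl-CoA from acetate in the cytosol, had 10.47 with the normal diet and 11.14 with the high fat diet. Its difference was 0.67, and 0.38 on its other probe set above the floor. Slc25a1, the citrate carrier of the mitochondrial inner membrane, had 10.94 and 11.27, a difference of 0.32. Pc, pyruvate carboxylase, which refills oxaloacetate for citrate, had 11.78 on the high fat diet array, a difference of -0.22. The last difference is smaller than the SD between probe sets. The median of the 7 genes of this step was -0.47, with 5 lower and 2 higher.

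The 4 genes measured for NADPH, the reductant of synthesis, and for the pentose phosphate route all lay within the probe gap on their representing probe sets. Me1, the cytosolic malic enzyme, had 12.27 and 12.59, with differences of 0.33 and 0.23 on its 2 probe sets. Pgd, the 6-phosphogluconate dehydrogenase of the pentose phosphate route, had 12.43 and 12.63, and its 4 probe sets ranged from 0.17 to 0.27. Both were thus slightly higher on every probe set, within the probe gap. In the branch of the route that makes no NADPH, Taldo1, transaldolase, had 12.32 and 12.36, a difference of 0.04. Tkt, transketolase, had 13.69 and 13.03, a difference of -0.66, with -1.06 and -0.58 on its other probe sets. Tkt was therefore lower on all 3 probe sets, and past 2-fold on 1 of them. The median of the 4 genes was 0.12.

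Among the elongases, Elovl6, which extends palmitate to stearate, was lower and Elovl1, which acts on very long saturated chains, was higher. Elovl6 had 9.71 with the normal diet and 9.03 with the high fat diet, 1.60-fold lower, with -0.68 and -0.66 on its probe sets above the floor. Elovl1 had 9.85 and 10.23, and its 3 probe sets above the floor differed by 0.32 to 0.38. Elovl5, the elongase of polyunsaturated chains, had 10.80 and 10.65, with -0.16 and -0.25. All 3 stayed inside the probe gap of 0.70.

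Among the desaturase genes 3 were lower (Fads1, Fads2 and, at -0.01, Scd1) and 2 higher (Scd2 and Fads3), with a median of -0.01. Fads1 and Fads2 encode the desaturases that act in sequence to make arachidonic acid and other highly unsaturated chains. Fads1 had 9.61 with the normal diet and 8.34 with the high fat diet, 2.41-fold lower. Its other probe set, close to the floor at 6.00 and 5.29, gave -0.71. Fads2 was lower on all 3 of its probe sets, with 7.89 and 7.09 on the representing one (-0.80) and 8.12 and 6.39 on another (-1.73). On the third, the signals were 6.44 and 4.92, the latter under background, so that the ratio is a bound of at least 2.80-fold. The dimmer probe sets thus put Fads2 past 2-fold and the representing one did not.

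Fads3, a neighbour of the same family that acts on sphingoid bases, stood on the other side. It had 11.48 with the normal diet and 12.38 with the high fat diet, 1.87-fold higher, and its 3 probe sets gave 0.90, 0.87 and 1.22. The stearoyl-CoA desaturases, which make oleate and palmitoleate, were also uneven. Scd2, the form abundant in brain and in developing tissue, had 11.73 and 12.65 on its brightest probe set, a difference of 0.92. Its other probe sets had 9.81 and 11.15 (1.34) and 7.74 and 9.38 (1.64), so the difference was larger at lower signal and passed 2-fold on those 2. Scd1, the main form of fat and liver, had 14.17 and 14.15 on one probe set and 13.03 and 12.96 on the other. The first pair lies near the highest values of the arrays (14.28 and 14.21), where differences can be compressed. With quantile normalization its difference of -0.01 became 0.10.

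**Figure D3:**
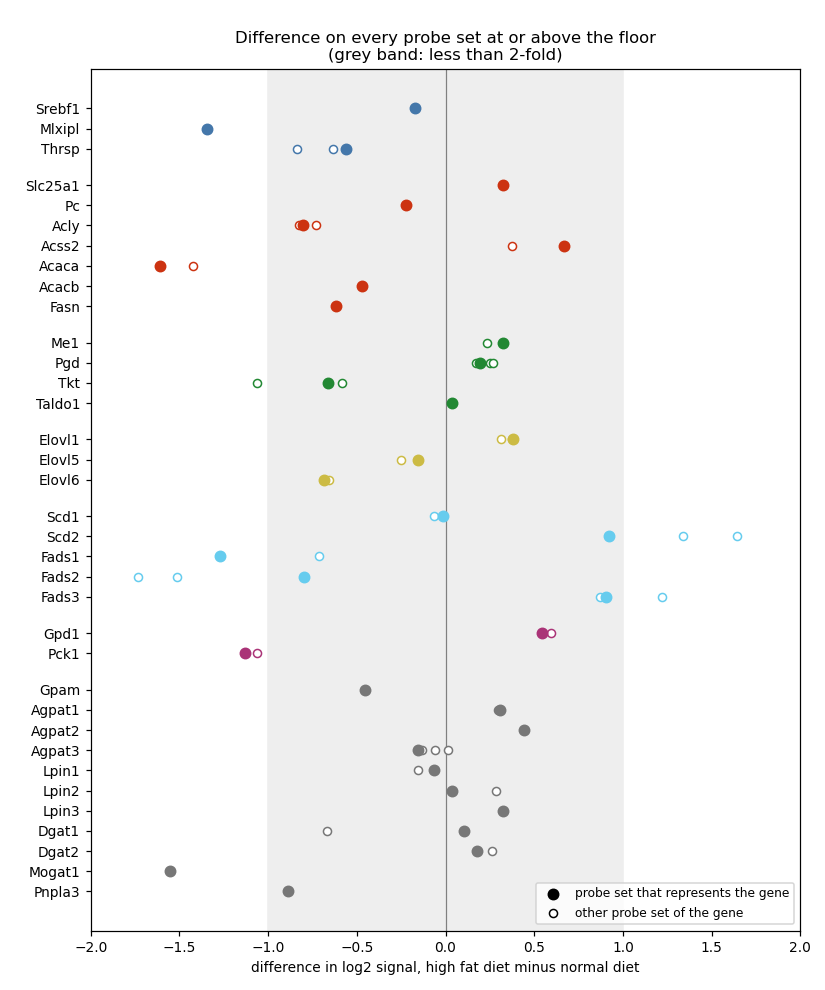
Difference in log2 signal, high fat diet minus normal diet (x axis), on each of the 70 probe sets of the members above the floor; filled points are the probe sets that represent the genes, open points the others, and the grey band is less than 2-fold. All 3 Scd2 and Fads3 points lie right of 0 and all 3 Fads2 and both Fads1 points left of it, while the 2 Dgat1 points lie on opposite sides.

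Glycerol 3-phosphate, the backbone of triglyceride, comes from glycolysis or from glyceroneogenesis. The genes measured for its supply, Gpd1 and Pck1, went opposite ways, and only Pck1 passed the probe gap. Gpd1, which reduces dihydroxyacetone phosphate to glycerol 3-phosphate, had 11.81 with the normal diet and 12.35 with the high fat diet. Its probe sets above the floor gave 0.55 and 0.59. Pck1, the cytosolic carboxykinase that starts glyceroneogenesis in fat, had 12.46 and 11.32, a difference of -1.13 or 2.19-fold lower, and -1.06 on its other probe set above the floor. Pck1 is also abundant in liver, whose markers were lower on the same array as given above. The part of liver RNA in the difference of Pck1, as in those of the other members, was not tested.

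Of the 11 genes that assemble triglyceride, 6 were higher and 5 lower by their representing probe sets, and the median was 0.03. The 6 include Dgat1, whose probe sets disagreed. The first acyltransferase, Gpam, of the mitochondrial outer membrane, had 12.04 and 11.59, with -0.46 and -0.45 on its probe sets. The next step is that of the Agpat enzymes, which make phosphatidic acid. Agpat2, the form whose loss causes lipodystrophy, had 12.24 and 12.68, a difference of 0.44 on 1 probe set. Agpat1 had 6.41 and 6.71, with 0.30 on both probe sets. Agpat3 had 9.88 and 9.73, and its 4 probe sets ran from -0.16 to 0.02. None of these differences passed the probe gap.

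The lipins, which remove phosphate to give diacylglycerol, all lay within the probe gap. Lpin1, the main form of fat, had 11.57 and 11.51, a difference of -0.07. Lpin2 had 7.69 and 7.72, a difference of 0.03, and 0.28 on its other probe set above the floor. Lpin3 had 5.60 and 5.92, a difference of 0.32 close to the floor. The last step, from diacylglycerol to triglyceride, also showed small differences. Dgat2, the acyltransferase that works on newly made fatty acids, had 12.87 and 13.05, with 0.17 and 0.26 on its probe sets. Dgat1, its unrelated counterpart, had 11.12 and 11.22 on a probe set of the type that can match several transcripts (0.11). Its other probe set had 6.54 and 5.87 (-0.67), a gap of 0.77 with opposite signs. Dgat1 is counted above by its brighter probe set, and the median of both was -0.28, which would make the count 5 higher and 6 lower.

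The members of this step past the probe gap, Mogat1 and Pnpla3, were outside the main route and had 1 probe set each. Mogat1, the monoacylglycerol acyltransferase that rebuilds diacylglycerol from partly hydrolysed fat, had 10.04 with the normal diet and 8.49 with the high fat diet. Its difference was -1.55, or 2.93-fold lower, on its only probe set, and 1.59% of genes lay lower. Pnpla3, a lipid droplet protein of the patatin family that follows feeding and SREBP-1c, had 9.26 and 8.37, 1.85-fold lower, also on 1 probe set.

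Signal level is given beside these differences because the scale can be compressed at its bright end, which was not measured here. The 9 members above 12 on both arrays (Thrsp, Fasn, Me1, Pgd, Tkt, Taldo1, Scd1, Agpat2 and Dgat2) had differences from -0.66 to 0.44. Of them 0 reached 2-fold, as did 0 (0%) of all 262 genes above 12 on both arrays. That limit leaves out genes above 12 on 1 array alone, such as Pck1 (12.46 and 11.32) and Acly (12.51 and 11.70). The counts of 0 thus follow in part from the limit. The other 26 members, which include Pck1 and Acly, had differences from -1.61 to 0.92, with 5 at least 2-fold lower. The part of signal compression in these contrasts was not tested.

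Genes of the same pathway that are not members lay closer to 0 than the members. Of 70 such genes 65 were measured and 59 lay above the floor, of which 27 were higher and 32 lower, with a median of -0.03 and quartiles of -0.23 and 0.24. The quartiles of the members were -0.67 and 0.31. At 2-fold, 1 was higher (Insig1) and 2 were lower (Gpd2 and Irs1), against 3.28% and 3.29% of all genes.

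Among 17 regulators and cofactors, 5 were higher and 12 lower. Insig1, which holds SREBP precursors in the endoplasmic reticulum and is itself a target of SREBP, had 9.25 and 10.25, 2.01-fold higher. Nr1h3, the oxysterol receptor LXR alpha, had a difference of 0.38. The insulin pathway genes Irs1, an adaptor of the receptor, and Insr, the receptor, had -1.13 and -0.65. Mlx and Mlxip, the partner and the paralogue of ChREBP, had 0.003 and -0.04 beside -1.34 for Mlxipl.

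Among 9 genes of carbon supply, 4 were higher and 5 lower. Slc2a4, the insulin-responsive glucose transporter, had 10.23 and 9.49 (-0.74), and Pdha1, of pyruvate dehydrogenase, had -0.58. Slc25a10, the dicarboxylate carrier, had 0.64 and Pkm, pyruvate kinase, 0.10. In the list for NADPH and the pentose phosphate route, 4 of 6 genes were higher, led by Rpe (0.33) and Rpia (0.32). Both lie in the branch of that route that makes no NADPH. H6pd had -0.32 and Idh2 -0.16. None of these 6 passed the probe gap.

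Among 12 genes of the acyl chain, 6 were higher and 6 lower. Hsd17b12 and Tecr, which carry out the reductions of the elongation cycle that every elongase shares, had 0.85 and 0.71. Elovl3, an elongase of brown fat and skin, had 7.56 and 6.71 (-0.86). Acsl4, an acyl-CoA synthetase that prefers arachidonate, had -0.47 on its representing probe set. Its 3 probe sets above the floor ran from -0.47 to 0.83, so its direction is not settled. Brown adipocyte markers went both ways beside Elovl3, itself one of them, with 2 of 6 higher, 4 lower and Ucp1 at -1.26.

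Of 15 further genes of glycerolipid assembly 8 were higher and 7 lower. Gpd2, the mitochondrial glycerol 3-phosphate dehydrogenase that consumes the backbone Gpd1 makes, had 10.15 and 8.63, 2.87-fold lower, and its 3 probe sets ran from -1.52 to -1.39. Gpd1l, a relative of Gpd1, had -0.41. Mogat2, the other monoacylglycerol acyltransferase here, had 8.23 and 8.95 (0.72) beside -1.55 for Mogat1, and Agpat5 had 0.67.

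**Figure D4:**
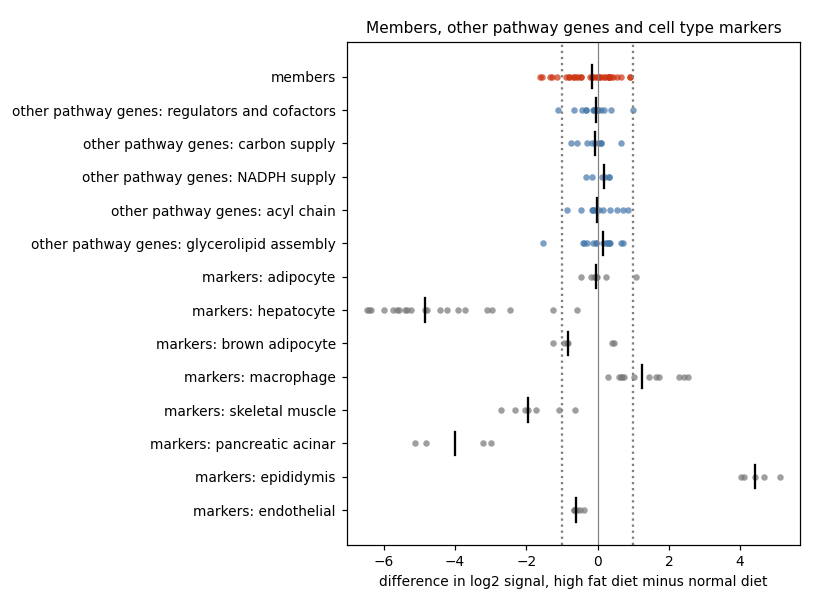
Differences in log2 signal, high fat diet minus normal diet (x axis), of the 35 members (red), 59 other genes of the pathway by group (blue) and cell type markers (grey), each point a gene above the floor, with the median as a bar and dotted lines at 2-fold. Member and pathway genes lie at -1.61 or above and none passes 2-fold to the right except Insig1, while hepatocyte and pancreatic acinar markers reach medians of -4.84 and -4.01 and epididymis markers 4.41.

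Markers of other tissues besides liver also differed, as the plot of context lists shows. Pancreatic acinar markers were lower in 4 of 4 cases, with a summed signal of 1531 against 87.4, and all 4 lay under background on the high fat diet array. Skeletal muscle markers were lower in 7 of 7 cases above the floor, with a sum over all 8 measured, the dimmer Myh1 included, of 4418 against 1839. Endothelial markers were lower in 6 of 6 cases by their representing probe sets (2153 against 1422), 0 of them by 2-fold. The other probe set of Cdh5 was higher (0.53 beside -0.39). Epididymis markers were higher in 5 of 5 cases (117.2 against 2489), 4 of them under background on the normal diet array. Among pathway genes of liver, Elovl2, the elongase that hepatocytes use for highly unsaturated chains, lay below the floor, at 5.85 on the normal diet array and 2.90, under background, on the other. Pklr, pyruvate kinase of liver, had 6.90 and 6.83. The part of these tissues in the members' differences was not tested.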

How the data were processed

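Adipose RNA of each diet was measured on 1 array. The authors deposited log2 signals from RMA, which corrects background, normalizes arrays together and summarises each probe set, per the submitters' processing notes, with no version stated. That the scale is log2 was read from the values (2.04 to 14.28). Sorted, both columns differed by at most 0.14. RMA signals can be compressed at both ends of the scale, and RMA removes any change in total RNA.

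Probe sets were named from the platform annotation; 34945 had 1 symbol, 932 several and 9160 none, and 64 control probe sets were left out. Other list symbols were also matched by Entrez ID to RefSeq (GRCm38.p6). Computation used Python 3.11.15, pandas 2.3.3 and NumPy 2.4.6, and the summary was tested on simulated data. Under background, a ratio is a bound. The members, lists, motifs and alternatives were chosen with earlier results of these data known. Values in full go to members past the probe gap, the brightest of each step and those with discordant probe sets, and of other pathway genes to the 2 farthest each way per group; Mlx, Mlxip, Elovl2 and Pklr were named after their values were seen. No test was possible with 1 array per diet. Alternatives changed the probe set rule, floor, probe types, scaling, dim signals and fold limit.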

Additional observations from a re-analysis of the deposited data

How the results depend on the processing

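Across the alternatives the median difference of the members stayed between -0.17 and -0.11, and the number at least 2-fold lower was 5 or 6 at a limit of 2-fold. With a fold limit of 1.5, 11 members were lower and 3 higher, beside 8.52% and 8.20% of all genes. Taking the median over a gene's probe sets, 1 member (Scd2, 1.34) was at least 2-fold higher, Dgat1 had -0.28, Fads1 -0.99 and Fads2 -1.52. With the floor at the 75th percentile of the probe sets, Fads2, Agpat1 and Lpin3 dropped out, and the desaturation median was 0.45 over 4 genes. Leaving out the _s_at and _x_at probe sets, Tkt had -1.06 and Dgat1 -0.67. The remaining values, 354 of 364, moved by less than the probe SD or, for counts, by at most 1.5 times. Leaving out members above 12 on both arrays, or Pc, was chosen after seeing the data and gave medians of -0.16 and -0.11. No paired analysis was possible because each diet has 1 pooled sample, and no replicate could be left out. Signal over background limits Lpin3, Agpat1 and the dimmest probe sets of other members, such as Thrsp, Fads1, Fads2 and Dgat1.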

Other observations

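The array design holds 4 control probe sets for pyruvate carboxylase, the transcript of Pc, which were left out of the comparison. The probe set at the 3′ end had 11.93 with the normal and 11.74 with the high fat diet, a difference of -0.19 beside -0.22 for the gene's own probe set. Those of the middle had differences of 0.13 and 0.05, and that of the 5′ end had 8.95 and 9.02, a difference of 0.07. All 4 differences were smaller than the SD of 0.27 between probe sets of 1 gene. A further probe set shared by Acss2 and its antisense neighbour Gssos2, which the rule left out for having both symbols, lay below the floor.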
